A study of Mus musculus with 10 samples.

Results

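The genes described here are the enzymes and regulators of cholesterol and fatty acid synthesis in a mouse melanoma line and in its liver-passaged subline. They are 33 genes taken from a list of symbols of the sterol regulatory element-binding protein (SREBP) pathway, out of 55385 gene identifiers in the deposited tables. The list names them by function, but it was chosen with earlier results of these data known. All 33 were found and all 33 passed the filter on low counts. RNA-seq had been done on 5 WT31 libraries and 5 WT31_P5IV libraries. WT31 is an untreated line from a melanoma of Tyr::NrasQ61K/°; INK4a−/− mice, in which the tyrosinase promoter drives mutant Nras in pigment cells and the Ink4a locus is lost. WT31_P5IV was made from it by 5 rounds of growth in the liver after injection into the tail vein, and it descends from cells with the same alleles. Both were grown in RPMI medium with fetal calf serum and lysed before they were confluent, so the libraries are from cultured cells and not from metastases. Each group is thus 1 line sampled 5 times, and the P values measure the spread between those samples.

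Animal cells build cholesterol from acetyl-CoA. The mevalonate pathway first makes isoprenoid units and joins them to farnesyl diphosphate, squalene is then made and closed to lanosterol, and lanosterol is trimmed in several steps to cholesterol. Fatty acids are built from the same acetyl-CoA, with NADPH as the reductant, and are then elongated and desaturated. The SREBP transcription factors switch on most of these genes when the sterol content of the endoplasmic reticulum is low. SCAP escorts them to the Golgi for cleavage and the INSIG proteins hold them back. SREBP1 is best known for fatty acid genes and SREBP2 for cholesterol genes.

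The 10 libraries held 24255389 to 25750639 estimated counts. The first principal component separated the groups and took 74.5% of the variance, and WT31 2 and WT31 3 lay apart from WT31 4 and WT31 5 on the second. The 8 melanocyte markers were all abundant, with a summed level of 17627 to 19030 CPM (counts per 1000000, TMM-scaled) in WT31 and 23105 to 26711 CPM in WT31_P5IV. Of all 13620 tested genes 68.5% were called by edgeR at an adjusted P under 0.05, 34.6% higher and 33.9% lower in WT31_P5IV. The melanocyte markers went both ways, with 4 higher and 2 lower and LogFC from -0.96 (Tyrp1) to 1.22 (Pmel). Of 10 hepatocyte markers 1 passed the filter on low counts and was not called, and the list summed to at most 1.81 CPM in any library, with 3 markers at 0 in all 10. No endothelial marker of 7 passed the filter. Of 8 macrophage and leukocyte markers 2 were tested, Cd68 (LogFC 1.45) and Lyz2 (LogFC -2.01), while Clec4f and Cd14 were at 0 in all libraries, and the list summed to 4.92 to 6.72 CPM in WT31 and 4.34 to 6.32 CPM in WT31_P5IV. Of 8 stellate cell and fibroblast markers 4 were higher in WT31_P5IV, and the list summed to 2.32 to 3.10 CPM in WT31 and 4.63 to 5.38 CPM in WT31_P5IV. Of 8 proliferation markers 6 were higher and 1 was lower in WT31_P5IV. Lists this short are descriptions beside the share of all genes, and the part of these values in the results below was not tested.

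The synthesis genes did not move as a block. Of the 33 genes 12 were higher and 16 were lower in WT31_P5IV by edgeR's quasi-likelihood test at an adjusted P of 0.05, and 5 were not called. The shares are to be read against all 13620 tested genes, of which 68.5% were called in either direction, 34.6% higher and 33.9% lower. Large changes were few. One gene, Srebf1, passed a 2-fold change, against 9.19% of all tested genes. For 24 genes the CPM of both groups did not overlap, which was so for 54.1% of all tested genes. The median LogFC of the 33 genes was -0.11 and that of all tested genes was 0.01. On TPM, which scales counts by transcript length, 8 genes were higher and 18 lower, and the LogFC of all genes there shifted by a median of -0.17 from the fit of counts. The genes before squalene fell except Mvk, those of the sterol part went both ways, and the SREBP genes with their escort rose.

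**Figure D1:**
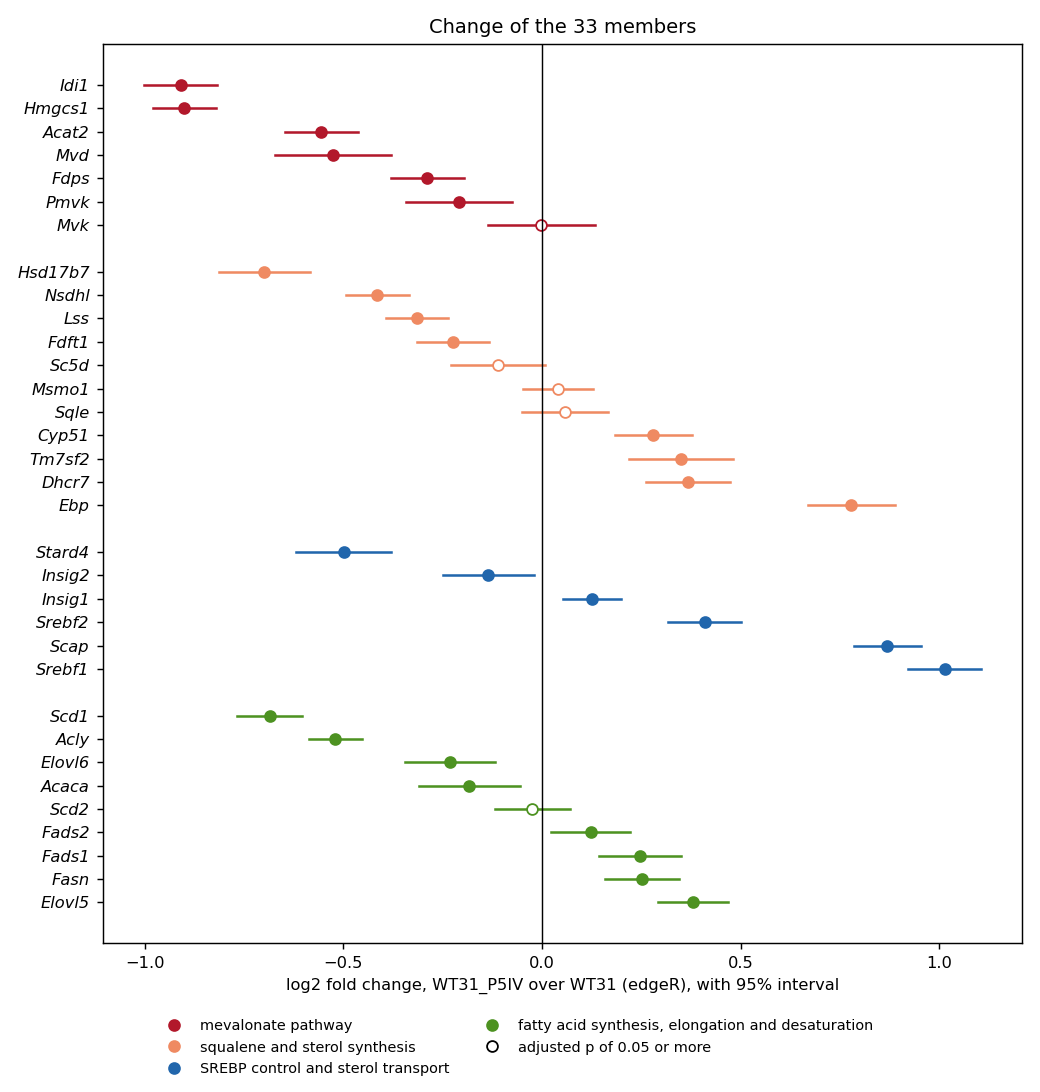
LogFC of each of the 33 genes, WT31_P5IV over WT31, on the x axis, with the 95% interval of edgeR's fit as the line and genes grouped by role on the y axis. Filled points passed an adjusted P of 0.05. All 6 filled points of the mevalonate pathway lie left of 0, and Srebf1 and Scap lie farthest to the right.

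The mevalonate pathway was lower in WT31_P5IV. Of its 7 genes 6 fell, none rose and Mvk was not called, and the median LogFC was -0.53. The summed level was 787 to 819.6 CPM in the WT31 libraries and 526 to 541 CPM in the WT31_P5IV libraries.

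Idi1 and Hmgcs1 fell most. Hmgcs1 (ENSMUSG00000093930.2, chr13:119690379-119708260 on the plus strand), the cytosolic HMG-CoA synthase that commits acetyl-CoA units to the pathway, had 236, 247, 243, 233 and 220.5 CPM in WT31 1 to 5 and 122, 127, 126, 128 and 129 CPM in WT31_P5IV 1 to 5. The WT31_P5IV libraries were all below the WT31 libraries, with a gap from 129 to 220.5 CPM. The fall was 46.4% (LogFC -0.90, SE 0.0368, adjusted P = 4.12e-11, edgeR). Idi1 (ENSMUSG00000058258.14, chr13:8885501-8892451 on the plus strand), the isomerase of the 5-carbon isoprenoid unit, had 185, 192, 184, 183 and 171 CPM in WT31 1 to 5 and 93.8, 91.8, 96.4, 104 and 101 CPM in WT31_P5IV 1 to 5. Its groups were also apart, with a gap from 104 to 171 CPM between them, and the fall was 46.8% (LogFC -0.91, SE 0.0428, adjusted P = 1.75e-10, edgeR). The words of 31 bases in their transcripts were shared with other genes for 13.1% at Hmgcs1, mostly with Gm48342 on the opposite strand, and for 27.1% at Idi1, mostly with Gm13502. Gm48342 was at 0.0392 CPM in WT31 and Gm13502 at 3.70 CPM. These are estimates made after shared reads were divided, so they cannot show which gene those reads came from.

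The promoter of Hmgcs1 is shown since this gene carried one of the largest falls and held the only match to the classical sterol regulatory element. The element was searched as TCACNCCAC and the CCAAT box, the site of the factor NF-Y, as CCAAT, each on both strands. Capitals mark the matches on either strand in the 150 bases before the RefSeq start (GRCm38.p6, plus strand, chr13:119690201-119690350).
Hmgcs1: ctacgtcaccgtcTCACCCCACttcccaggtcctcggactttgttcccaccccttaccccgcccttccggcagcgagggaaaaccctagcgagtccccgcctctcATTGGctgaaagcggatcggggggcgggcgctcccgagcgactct
The element TCACCCCAC lies at bases -137 to -129 from the start and a CCAAT box, read on the opposite strand, at -45 to -41. In the full 250 bases before the start Hmgcs1 also held CCAAT on the opposite strand at -237 to -233 and -176 to -172. Over the same length Idi1 had 2 CCAAT boxes on the opposite strand, at -45 to -41 and -14 to -10, and no match to the element. Both boxes of Idi1 lie within its GENCODE gene, which starts before the RefSeq start.

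The other steps before squalene fell by less. Acat2 (ENSMUSG00000023832.14, chr17:12942890-12960747 on the minus strand), the cytosolic thiolase that joins the first acetyl-CoA units, had 92.9, 80.5, 84.8, 87.8 and 84.9 CPM in WT31 1 to 5 and 60.4, 56.9, 56.9, 57.5 and 61.5 CPM in WT31_P5IV 1 to 5. The groups did not overlap and the fall was 32% (LogFC -0.56, SE 0.0431, adjusted P = 3.31e-08, edgeR). Of its words 43.7% were shared with Acat3, itself at a mean of 0.375 CPM in WT31 libraries and 0.865 CPM in WT31_P5IV libraries. Mvd, the diphosphomevalonate decarboxylase, had 31.7, 28.1, 27.4, 34.8 and 33.3 CPM in WT31 1 to 5 and 19.98, 21.7, 22.5, 20.8 and 22.8 CPM in WT31_P5IV 1 to 5. All WT31_P5IV values were below all WT31 values, although WT31 2 and WT31 3 were the lowest of their group (LogFC -0.53, SE 0.0682, adjusted P = 7.56e-06, edgeR). Fdps, which makes farnesyl diphosphate, ranged from 179 to 205 CPM over the WT31 libraries and from 156 to 165 CPM over those of WT31_P5IV (LogFC -0.29, SE 0.043, adjusted P = 2.97e-05, edgeR), and 27.9% of its words were shared, mostly with Gm43738 on the same strand, which was near 0.

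The kinases of the pathway moved least. Pmvk, the phosphomevalonate kinase, ranged from 18.8 to 23.4 CPM over the WT31 libraries and from 17.1 to 19.1 CPM over those of WT31_P5IV, with an overlap of the groups (LogFC -0.21, SE 0.0624, adjusted P = 0.0083, edgeR). Mvk, the mevalonate kinase, had 48.9, 43.0, 43.7, 54.0 and 54.1 CPM in WT31 1 to 5 and 49.8, 47.3, 47.1, 48.8 and 50.5 CPM in WT31_P5IV 1 to 5. The WT31 values spread more widely than those of the subline and enclosed them. The LogFC was -0.00 with a 95% interval of -0.14 to 0.13 (adjusted P = 0.984, edgeR). Without WT31 2 and WT31 3 it was -0.12 (adjusted P = 0.0203), and without WT31 4 and WT31 5 it was 0.09 (adjusted P = 0.137). On TPM it was -0.19 (adjusted P = 0.0119, limma), where the median shift of all genes from the fit of counts was -0.17.

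The enzymes from squalene to cholesterol split evenly. Of 11 genes 4 rose, 4 fell and 3 were not called, with a median LogFC of 0.04. The summed level overlapped, at 1355 to 1437 CPM in WT31 and 1399 to 1616 CPM in WT31_P5IV. In the order of the pathway, the entry steps Fdft1 and Lss fell with Sqle between them not called, Cyp51 and Tm7sf2 rose, Nsdhl and Hsd17b7 fell, and Ebp and Dhcr7 rose.

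Ebp rose most. Ebp (ENSMUSG00000031168.14, chrX:8185329-8193512 on the minus strand), the sterol isomerase that shifts the ring double bond, had 60.4, 53.6, 56.5, 64.0 and 63.9 CPM in WT31 1 to 5 and 102, 108, 103, 96.5 and 102 CPM in WT31_P5IV 1 to 5. The lowest WT31_P5IV library was at 96.5 CPM and the highest WT31 library at 64.0 CPM. The rise was 71.5% (LogFC 0.78, SE 0.0514, adjusted P = 6.32e-09, edgeR). Dhcr7, the reductase of the last step of one branch of the pathway, had 207, 184, 197, 216 and 215 CPM in WT31 1 to 5 and 266, 282, 257, 246 and 265 CPM in WT31_P5IV 1 to 5. The groups did not overlap (LogFC 0.37, SE 0.0489, adjusted P = 9.81e-06, edgeR). Cyp51, the lanosterol demethylase, had 241, 243, 241, 232 and 235 CPM in WT31 1 to 5 and 278, 319.9, 293, 265 and 293 CPM in WT31_P5IV 1 to 5. WT31_P5IV 2 was highest and WT31_P5IV 4 lowest of the subline, yet all 5 were above WT31 (LogFC 0.28, SE 0.0454, adjusted P = 6.68e-05, edgeR). On TPM the LogFC of Cyp51 was 0.11 and not called (adjusted P = 0.0792, limma). Tm7sf2, a sterol C14-reductase, had 62.5, 53.4, 56.0, 63.0 and 63.4 CPM in WT31 1 to 5 and 74.0, 86.8, 73.2, 71.8 and 74.6 CPM in WT31_P5IV 1 to 5. The groups did not overlap (LogFC 0.35, SE 0.061, adjusted P = 1.31e-04, edgeR). WT31_P5IV 2 stood above the other libraries, and without it the LogFC was 0.29. Of its words 13.3% were shared, mostly with Vps51 on the same strand, which had a mean of 33.6 CPM in the parental and 40.9 CPM in the passaged cells.

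Both enzymes of the C4-demethylation complex that act beside Msmo1 fell. Hsd17b7 (ENSMUSG00000026675.12, chr1:169949535-169969241 on the minus strand), the keto-reductase, had 52.7, 55.9, 59.6, 54.4 and 50.0 CPM in WT31 1 to 5 and 33.4, 36.4, 34.7, 32.4 and 30.98 CPM in WT31_P5IV 1 to 5. The groups did not overlap, with a fall of 38.4% (LogFC -0.70, SE 0.0537, adjusted P = 3.00e-08, edgeR). Nsdhl (ENSMUSG00000031349.4, chrX:72918557-72958514 on the plus strand), the sterol dehydrogenase, had 147, 136, 140.4, 149 and 148 CPM in WT31 1 to 5 and 108, 112, 105, 105 and 109.6 CPM in WT31_P5IV 1 to 5. All WT31_P5IV libraries were below all WT31 libraries (LogFC -0.42, SE 0.037, adjusted P = 1.47e-07, edgeR). Msmo1 itself, the C4 oxidase, ranged from 198 to 219.7 CPM over the WT31 libraries and from 203 to 228 CPM over those of WT31_P5IV, and its LogFC of 0.04 had a 95% interval of -0.05 to 0.13 (adjusted P = 0.4, edgeR). On TPM, with the shift of all genes given above, Msmo1 was called lower (LogFC -0.13, adjusted P = 0.00551, limma). Nsdhl and Ebp are both on the X chromosome, whose 393 tested genes had a median LogFC of -0.13.

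Of the early sterol steps Fdft1 and Lss fell slightly and Sqle was not called. Fdft1, the squalene synthase, ranged from 118 to 132 CPM over the WT31 libraries and from 102 to 114 CPM over those of WT31_P5IV without overlap (LogFC -0.23, SE 0.0425, adjusted P = 2.68e-04, edgeR). Its words were shared for 31.9%, and Ctsb, which overlaps it on the opposite strand, accounted for 17.6% and rose from 1203 to 1531 CPM, so reads of the pair may have been split between them. Lss, the lanosterol synthase, ranged from 79.9 to 85.1 CPM over the WT31 libraries and from 63.5 to 68.3 CPM over those of WT31_P5IV (LogFC -0.31, SE 0.0366, adjusted P = 2.49e-06, edgeR). With an offset for effective length the LogFC of Lss was -0.16 and not called (adjusted P = 0.123). Sqle, the squalene epoxidase, had 179.6, 183, 186, 183 and 182 CPM in WT31 1 to 5 and 184, 216, 197, 172 and 182 CPM in WT31_P5IV 1 to 5. WT31 was tight and WT31_P5IV spread around it, with WT31_P5IV 2 highest and WT31_P5IV 4 lowest (95% interval of the LogFC -0.05 to 0.17, adjusted P = 0.326, edgeR). Sc5d, the sterol desaturase, ranged from 44.5 to 51.8 CPM over the WT31 libraries and from 39.4 to 49.2 CPM over those of WT31_P5IV (95% interval -0.23 to 0.01, adjusted P = 0.0872, edgeR). It was called lower when WT31 4 or WT31_P5IV 2 was left out (LogFC -0.15 in either case), without WT31 4 and 5 (LogFC -0.17), with the replicate block (LogFC -0.11), with limma voom without scaling and filter (LogFC -0.18) and with every gene of at least 1 count kept (LogFC -0.17).

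The promoter of Ebp is shown as that of the largest rise among the sterol enzymes. It is the 150 bases before the RefSeq start on the minus strand (GRCm38.p6), chrX:8193513-8193662, with CCAAT boxes on either strand in capitals.
Ebp: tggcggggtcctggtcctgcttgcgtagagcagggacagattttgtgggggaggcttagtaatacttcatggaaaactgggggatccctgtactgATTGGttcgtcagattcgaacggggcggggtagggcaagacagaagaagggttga
The match lies at -55 to -51, on the opposite strand, and no TCACNCCAC was found.

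The SREBP factors and their escort rose while the sterol carrier Stard4 fell. Of the 6 genes of control and sterol transport 4 rose and 2 fell, with a median LogFC of 0.27. Srebf1 (ENSMUSG00000020538.15, chr11:60199089-60222581 on the minus strand), the factor of fatty acid genes, had 139.6, 131, 131, 139.5 and 138 CPM in WT31 1 to 5 and 276, 294, 279, 253 and 267 CPM in WT31_P5IV 1 to 5. Every WT31_P5IV library was far above every WT31 library. The rise was 102% (LogFC 1.01, SE 0.0424, adjusted P = 5.42e-11, edgeR). It was the only gene of the 33 past 2-fold, and only just. On TPM its LogFC was 0.84 (limma), and there Hmgcs1 (LogFC -1.07) and Idi1 (LogFC -1.08) passed 2-fold in its place. Without WT31 2, without WT31 3 or without WT31_P5IV 2 its LogFC was 0.99, 0.99 and 0.98. Scap (ENSMUSG00000032485.14, chr9:110333288-110384950 on the plus strand), the escort, had 83.0, 76.8, 75.3, 79.2 and 80.1 CPM in WT31 1 to 5 and 149, 150.3, 145, 139 and 137 CPM in WT31_P5IV 1 to 5. Its groups were as clearly apart, with a rise of 82.7% (LogFC 0.87, SE 0.0395, adjusted P = 1.24e-10, edgeR). Of its words 11.3% were shared, all with 5830462I19Rik on the opposite strand, which had a mean of 0.227 CPM in WT31 and 0.401 CPM in WT31_P5IV.

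Srebf2 (ENSMUSG00000022463.8, chr15:82147181-82205379 on the plus strand), the factor of cholesterol genes, had 299.5, 292, 302, 297 and 317 CPM in WT31 1 to 5 and 415, 421, 416, 367 and 384 CPM in WT31_P5IV 1 to 5. All WT31_P5IV libraries lay above the WT31 libraries and the rise was 32.8% (LogFC 0.41, SE 0.0431, adjusted P = 8.82e-07, edgeR). Stard4, which carries cholesterol between membranes, had 72.4, 77.0, 75.0, 64.3 and 62.9 CPM in WT31 1 to 5 and 48.6, 48.5, 51.2, 48.5 and 51.9 CPM in WT31_P5IV 1 to 5. WT31 4 and WT31 5 were the lowest of WT31 and still above all WT31_P5IV libraries (LogFC -0.50, SE 0.056, adjusted P = 1.71e-06, edgeR).

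The INSIG genes changed little and in opposite directions. Insig1, itself an SREBP target, had 115, 116, 115, 115 and 114 CPM in WT31 1 to 5 and 126, 127, 129.6, 117 and 128 CPM in WT31_P5IV 1 to 5. WT31_P5IV 4 came close to the WT31 libraries without overlap, and the rise was 9.08% (LogFC 0.13, SE 0.0344, adjusted P = 0.00485, edgeR). It was not called on TPM (LogFC 0.03, adjusted P = 0.541, limma), nor with limma voom without scaling and filter (LogFC 0.05, adjusted P = 0.272), nor when all genes with a count were kept (LogFC 0.07, adjusted P = 0.249). Insig2, whose liver form answers to insulin, ranged from 33.7 to 37.5 CPM over the WT31 libraries and from 30.5 to 36.7 CPM over those of WT31_P5IV, an overlap (LogFC -0.13, SE 0.0533, adjusted P = 0.0359, edgeR). Its call was lost without WT31 1 or without any of WT31_P5IV 1 to 4, with an adjusted P of 0.0504 to 0.0804, with upper-quartile scaling (LogFC -0.11) and on TPM (LogFC -0.11), and with an effective length offset its LogFC was 0.03.

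**Figure D2:**
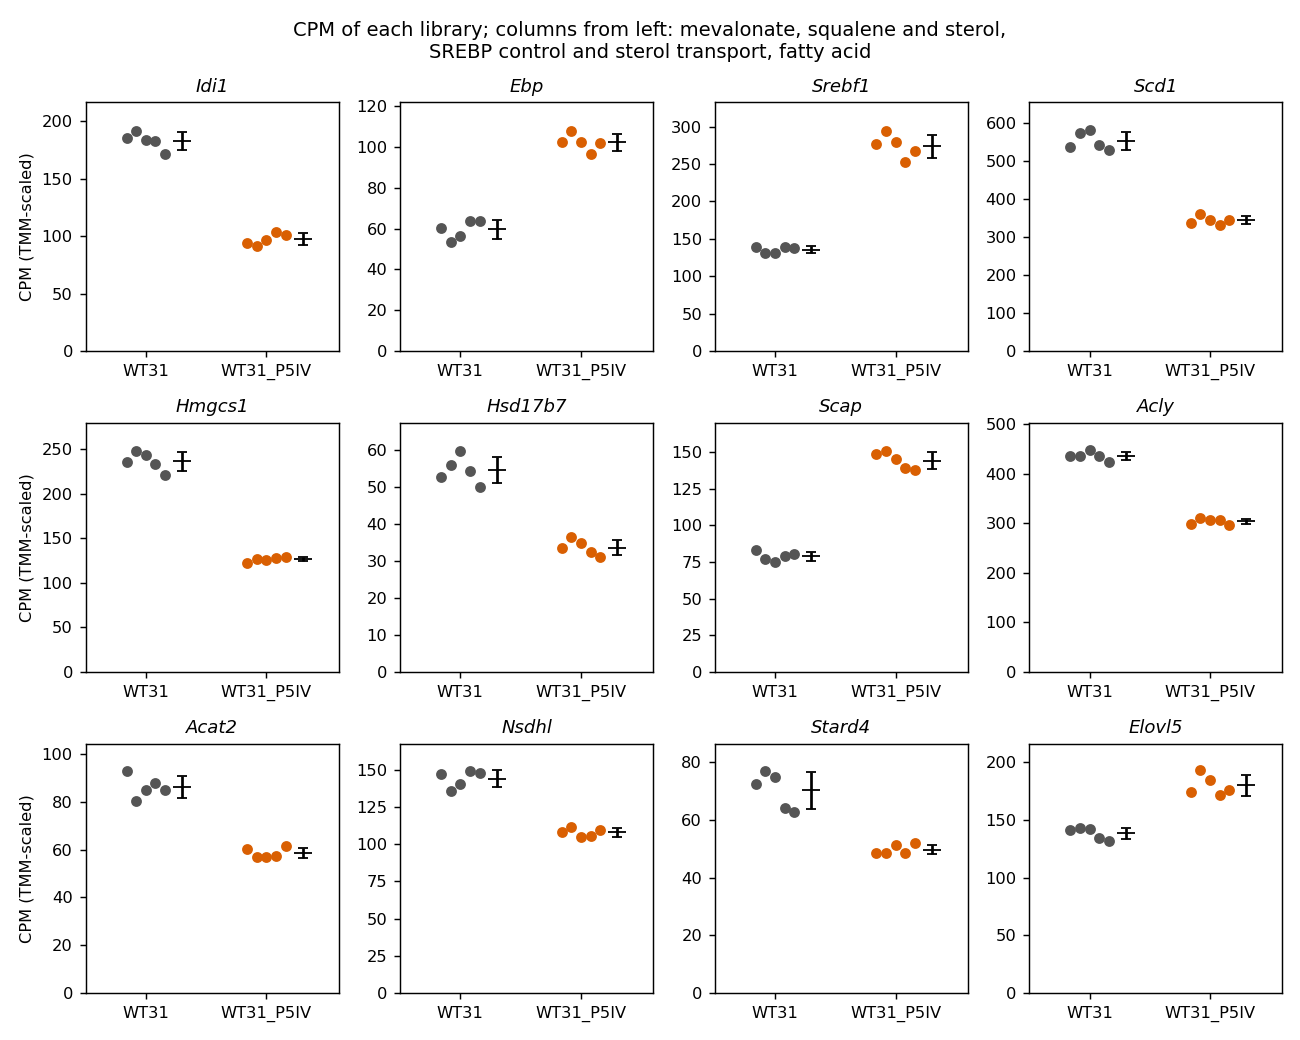
CPM of each library on the y axis, from 0, for the 3 called genes with the largest LogFC in either direction of each role and no overlap. Points are libraries, and the bar beside them is the mean with its SD (n = 5). In each panel the groups stand apart, as at Srebf1, with a mean of 136 CPM in WT31 and 274 CPM in WT31_P5IV.

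The fatty acid genes also went both ways. Of 9 genes 4 rose, 4 fell and Scd2 was not called, with a median LogFC of -0.02. Summed levels overlapped, at 4669 to 5057 CPM in WT31 and 4377 to 4854 CPM in WT31_P5IV. Acly (ENSMUSG00000020917.17, chr11:100476353-100528000 on the minus strand), the ATP citrate lyase that supplies cytosolic acetyl-CoA, had 436, 437, 449, 435 and 424 CPM in WT31 1 to 5 and 299.8, 310.0, 307, 308 and 297 CPM in WT31_P5IV 1 to 5. Both groups were tight and far apart, with a fall of 30.3% (LogFC -0.52, SE 0.031, adjusted P = 2.17e-09, edgeR). Acaca, the carboxylase that makes malonyl-CoA, ranged from 122 to 151 CPM over the WT31 libraries and from 113 to 124 CPM over those of WT31_P5IV and overlapped (LogFC -0.18, SE 0.0595, adjusted P = 0.0134, edgeR). Of its words 33.5% were shared, mostly with Gm5182, which was near 0, and with the effective length offset its LogFC was -0.20 and not called (adjusted P = 0.0700). Fasn, the fatty acid synthase, had 329, 362, 386, 338 and 343 CPM in WT31 1 to 5 and 424, 420.0, 432, 418 and 399.8 CPM in WT31_P5IV 1 to 5. The highest WT31 library, WT31 3, was below the lowest WT31_P5IV library (LogFC 0.25, SE 0.0437, adjusted P = 1.30e-04, edgeR). So the gene of the synthase rose and those of the steps before it fell.

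The stearoyl-CoA desaturases, which put the first double bond into fatty acids, differed from each other. Scd1 (ENSMUSG00000037071.3, chr19:44394455-44407879 on the minus strand) had 536, 573, 581, 541 and 528 CPM in WT31 1 to 5 and 335, 359.8, 344, 332 and 345 CPM in WT31_P5IV 1 to 5. WT31_P5IV 2 was the highest of the subline and still far below every WT31 library, and the fall was 37.8% (LogFC -0.69, SE 0.0382, adjusted P = 1.05e-09, edgeR). Scd2, the most abundant of the 33 genes, ranged from 2380.1 to 2628 CPM over the WT31 libraries and from 2283 to 2569.8 CPM over those of WT31_P5IV. Its LogFC of -0.02 had a 95% interval of -0.12 to 0.07 (adjusted P = 0.634, edgeR). Scd2 was called lower on TPM (LogFC -0.20, adjusted P = 0.00674, limma), where the median shift of all genes from the fit of counts was -0.17, and with limma voom without scaling and filter (LogFC -0.10, adjusted P = 0.0244). Words shared with other genes, mostly Scd3, were 8.18% for Scd1 and 6.81% for Scd2.

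The elongases moved in opposite directions. Elovl5 (ENSMUSG00000032349.13, chr9:77917364-77984519 on the plus strand), which elongates polyunsaturated fatty acids, had 141, 143, 142, 134 and 131 CPM in WT31 1 to 5 and 174, 193, 185, 172 and 176 CPM in WT31_P5IV 1 to 5. The groups did not overlap (LogFC 0.38, SE 0.0408, adjusted P = 1.10e-06, edgeR). Elovl6 (ENSMUSG00000041220.10, chr3:129532355-129638495 on the plus strand), which elongates saturated fatty acids made by the synthase, had 124, 139, 136, 121 and 116 CPM in WT31 1 to 5 and 104, 115, 112, 103 and 107 CPM in WT31_P5IV 1 to 5. WT31 5 and WT31_P5IV 2 lay closest, without overlap (LogFC -0.23, SE 0.0527, adjusted P = 0.00123, edgeR). Fads1 and Fads2, the desaturases of polyunsaturated fatty acids, both rose slightly. Fads1 ranged from 269 to 278 CPM over the WT31 libraries and from 303 to 362 CPM over those of WT31_P5IV (LogFC 0.25, SE 0.0479, adjusted P = 3.49e-04, edgeR) and Fads2 from 319 to 347 CPM over the WT31 libraries and from 343 to 402 CPM over those of WT31_P5IV, with overlap (LogFC 0.12, SE 0.0466, adjusted P = 0.0299, edgeR). On TPM neither was called, with a LogFC of 0.09 for Fads1 (adjusted P = 0.112, limma) and -0.06 for Fads2 (adjusted P = 0.170, limma). The call of Fads2 was lost without any of WT31 1, 2 and 3 and WT31_P5IV 2 and 3, with a LogFC of 0.08 to 0.11, and without WT31_P5IV 2 the adjusted P was 0.0979 (edgeR). It was also lost with limma voom without scaling and filter (LogFC 0.05), with every gene of at least 1 count kept (LogFC 0.07) and with the effective length offset (LogFC 0.08).

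The promoters of the elongase pair are shown because both genes belong to one family and moved apart. They are 150 bases that end before the GENCODE gene (GRCm38.p6, plus strand), chr9:77917214-77917363 for Elovl5 and chr3:129532205-129532354 for Elovl6, with CCAAT boxes on either strand in capitals.
Elovl5: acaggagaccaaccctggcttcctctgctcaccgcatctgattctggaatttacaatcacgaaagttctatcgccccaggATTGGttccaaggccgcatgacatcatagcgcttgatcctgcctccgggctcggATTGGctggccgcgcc
Elovl6: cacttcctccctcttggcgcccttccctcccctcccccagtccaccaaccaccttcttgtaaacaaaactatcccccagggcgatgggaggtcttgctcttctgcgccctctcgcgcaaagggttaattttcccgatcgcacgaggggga
Elovl5 holds 2 CCAAT boxes on the opposite strand, at -71 to -67 and -17 to -13 from the RefSeq start, and Elovl6 none, and neither window holds TCACNCCAC.

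Across the 33 genes 26 had a RefSeq promoter entry, and 250 bases before each start were searched. TCACNCCAC was found in 1 of 26, Hmgcs1, and in 1.28% of 9870 tested genes with an entry (346 of 32851 promoters of the table). Some genes have several starts, so shares of genes and of promoters are given apart. The shares of all promoters also take in genes that were not tested, so only the shares of tested genes are a like set. CCAAT was found in 20 of 26 genes (76.9%), against 40.9% of tested genes, and in 61.8% of their 34 promoters, against 33.8% of all promoters. It was found in 9 of 11 higher genes, 8 of 12 lower genes and 3 of 3 genes without a call, and no test compared these. The GC box GGGCGG, the site of SP1, was found in 21 of 26 genes (80.8%), against 64.1% of tested genes, and in 70.6% of their promoters, against 32.7% of all. Over all genes with an entry, tested or not, its share was 35.4%. The E-box CACGTG was found in 6 of 26 genes (23.1%), against 9.94% of tested genes, and in 17.6% of their promoters, against 6.02% of all. It was found in 4 of 11 higher, 1 of 12 lower and 1 of 3 genes without a call. The searched motifs do not contain one another, and a match is a description of letters and not of binding.

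**Figure D3:**
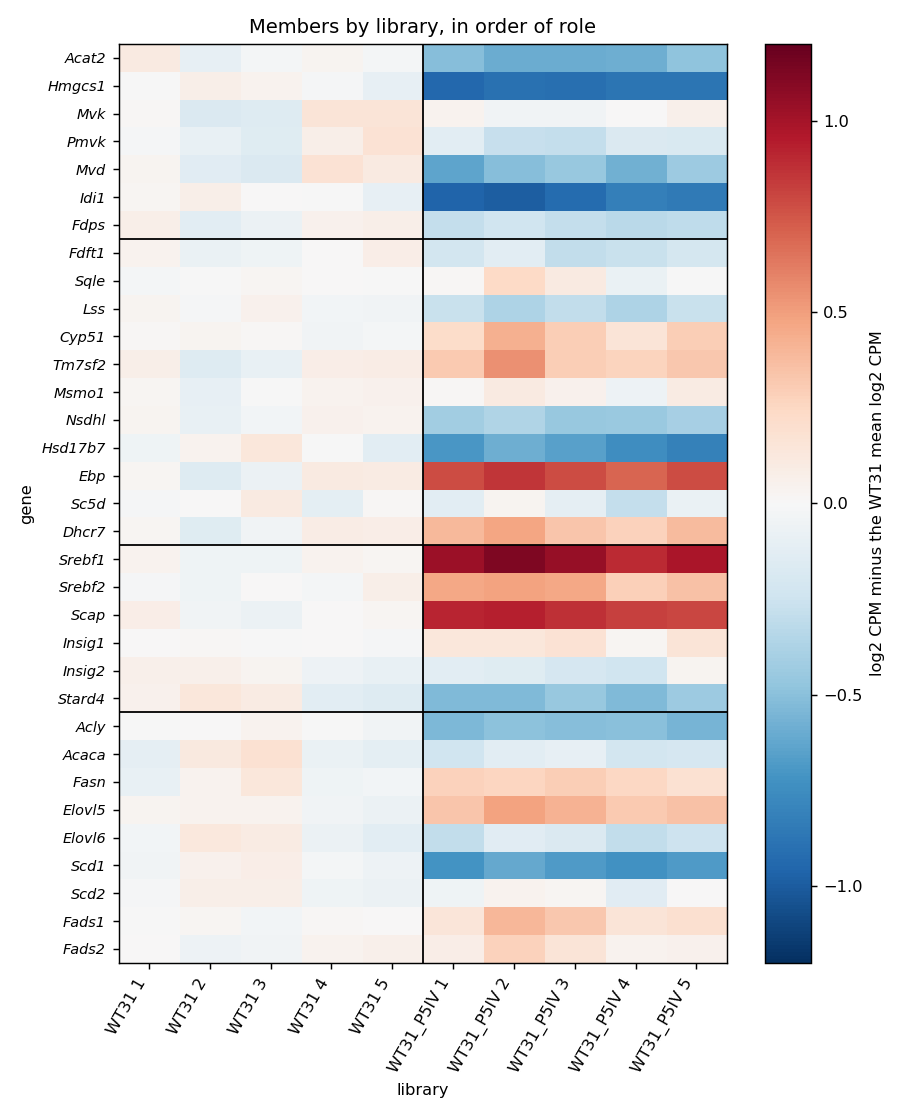
Each row is a gene, in the order of the roles, and each column a library. Colour gives log2 CPM minus the mean log2 CPM of WT31, from -1.2 to 1.2. Hmgcs1 and Idi1 are the darkest blue rows, Srebf1 the darkest red, and WT31_P5IV 2 is redder than WT31_P5IV 4 across the sterol rows.

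The spread within groups was small beside the larger changes. The coefficient of variation of CPM had a median over the 33 genes of 4.57% in WT31 and 4.75% in WT31_P5IV, with extremes of 0.617% (Insig1) and 11.0% (Mvk) in WT31. A pair of libraries of the subline stood apart over the 33 genes. In WT31_P5IV 2, 26 of 33 genes were above the mean of its group, and in WT31_P5IV 4, 28 of 33 were below, while 51.7% and 49.6% of all tested genes were above it in those libraries. WT31_P5IV 1, 3 and 5 had 15, 22 and 18 genes above the mean, and each WT31 library 16 to 20. Without WT31_P5IV 2 and WT31_P5IV 4, 11 genes were higher and 15 lower. Without WT31 2 and WT31 3 these counts were 11 and 16, and without WT31 4 and WT31 5 they were 12 and 17.

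Ratios of TPM within a library compare genes of a pair per length and without scaling between libraries. The ratio of Srebf1 to Srebf2 was 0.571 ± 0.0404 (SD, n = 5) in WT31 and 0.900 ± 0.0191 in WT31_P5IV. That of Scd1 to Scd2 was 0.253 ± 0.00461 and 0.164 ± 0.00486. The ratio of Fads1 to Fads2 was 0.760 ± 0.0332 and 0.846 ± 0.0242. The order of Nsdhl and Ebp turned over on TPM only. There Nsdhl was above Ebp in each WT31 library, with a ratio of 1.74 to 1.93, and below it in each WT31_P5IV library, with 0.784 to 0.848. On CPM, which is not scaled by length, Nsdhl was above Ebp in every library. The ratio of Idi1 to Dhcr7 was 0.725 ± 0.0697 and 0.306 ± 0.0313, and that of Hmgcs1 to Srebf2 was 0.997 ± 0.0989 and 0.417 ± 0.0312. These ranges did not overlap. For Insig1 to Insig2 they did, at 1.99 to 2.36 in WT31 and 2.25 to 2.74 in WT31_P5IV. The pairs were chosen with values known, so no test was made.

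**Figure D4:**
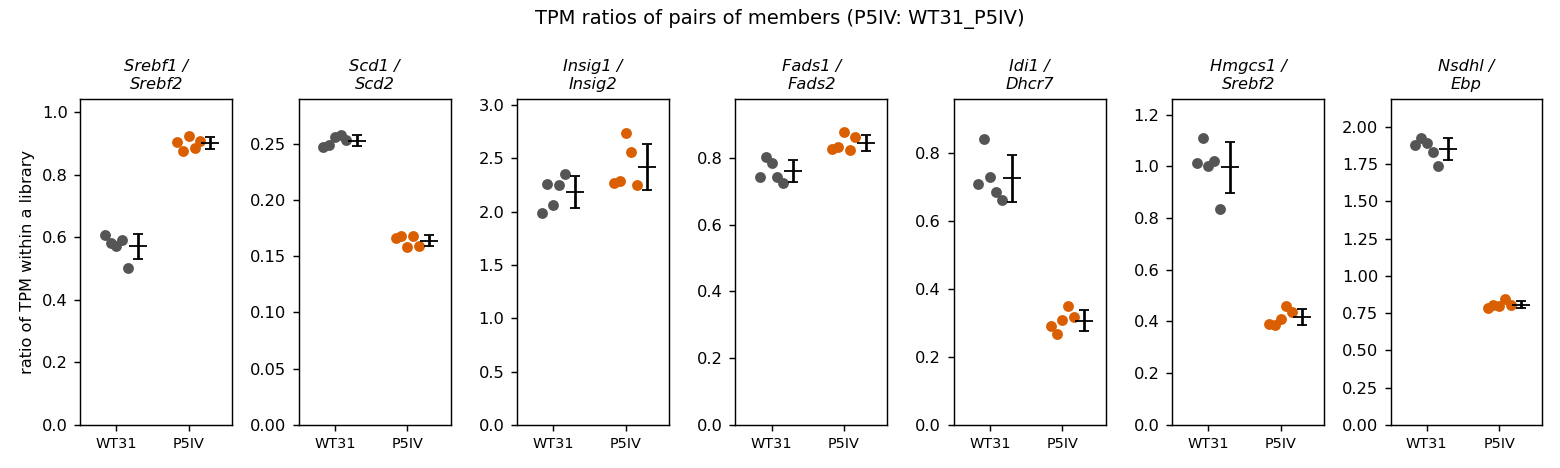
Ratio of TPM of 7 gene pairs within each library on the y axis, from 0, with points for libraries and the mean with its SD (n = 5) beside them. The Nsdhl to Ebp ratio is 1.74 or more in all WT31 libraries and 0.848 or less in all WT31_P5IV libraries.

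Listed genes that supply acetyl-CoA and NADPH were lower. The list was chosen with earlier results known and does not cover the whole function, and its 10 genes fell, against 33.9% of all tested genes, with a median LogFC of -0.55 and no overlap of groups in any. Their summed level was 1435 to 1517 CPM in WT31 and 1037 to 1071 CPM in WT31_P5IV. Me1, the malic enzyme that makes cytosolic NADPH, fell most, from 154 ± 2.97 (WT31) to 77.1 ± 0.955 CPM (WT31_P5IV) (SD, n = 5; LogFC -1.001, SE 0.0311, adjusted P = 2.37e-12, edgeR), a 2-fold change. G6pdx, the first enzyme of the pentose phosphate pathway, went from 288 ± 16.6 (WT31) to 174 ± 5.13 CPM (WT31_P5IV) (LogFC -0.73, SE 0.0423, adjusted P = 1.63e-09, edgeR). Slc25a1, the citrate carrier that feeds Acly, went from 39.9 ± 2.7 (WT31) to 24.8 ± 1.11 CPM (WT31_P5IV) (LogFC -0.68, SE 0.0525, adjusted P = 2.99e-08, edgeR). The latter pair was named after values were seen.

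Listed genes that process and degrade the SREBP system were higher. This list was chosen in the same way and is likewise only a part of the system, and its 4 genes rose, against 34.6% of all tested genes, with a median LogFC of 0.38, and for 3 of them the groups did not overlap. The largest was Mbtps1, the site-1 protease that cuts SREBPs, from 152 ± 1.96 (WT31) to 216 ± 9.59 CPM (WT31_P5IV) (LogFC 0.50, SE 0.036, adjusted P = 1.39e-08, edgeR).

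The counts of the next lists stand beside the 34.6% of all genes called higher and 33.9% called lower. The isoprenoid branch, which uses farnesyl diphosphate for other products, had 5 genes lower and 3 higher of 11, with a median LogFC of -0.11. Pggt1b, a geranylgeranyl transferase subunit, fell most (LogFC -0.63, SE 0.0802, adjusted P = 6.45e-06, edgeR) and Coq2 of ubiquinone synthesis rose most (LogFC 0.27, SE 0.0499, adjusted P = 2.21e-04, edgeR). Sterol storage and transport had 8 higher and 5 lower of 14 tested genes, 18 listed. Abca1, the cholesterol exporter, rose from 52.5 ± 8.62 (WT31) to 96.6 ± 8.6 CPM (WT31_P5IV) (LogFC 0.88, SE 0.0939, adjusted P = 1.02e-06, edgeR), and Gramd1b, a sterol carrier at membrane contacts, fell from 9.49 ± 0.735 (WT31) to 5.77 ± 0.419 CPM (WT31_P5IV) (LogFC -0.72, SE 0.0754, adjusted P = 8.24e-07, edgeR). Of 17 tested genes of other fatty acid steps, 23 listed, 9 rose and 3 fell. Acsl3, an acyl-CoA synthetase, rose most (LogFC 0.87, SE 0.0538, adjusted P = 3.15e-09, edgeR) and its relative Acsl4 fell most (LogFC -0.60, SE 0.0547, adjusted P = 2.02e-07, edgeR). Of 11 tested genes of triglyceride and phospholipid synthesis, 12 listed, 4 rose and 2 fell. Dgat1, which makes triglycerides, went from 18.9 ± 1.47 (WT31) to 38.4 ± 1.03 CPM (WT31_P5IV) (LogFC 1.02, SE 0.0525, adjusted P = 4.42e-10, edgeR), and Pcyt1a of phosphatidylcholine synthesis from 74.9 ± 3.82 (WT31) to 46.6 ± 1.83 CPM (WT31_P5IV) (LogFC -0.68, SE 0.043, adjusted P = 3.83e-09, edgeR).

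**Figure D5:**
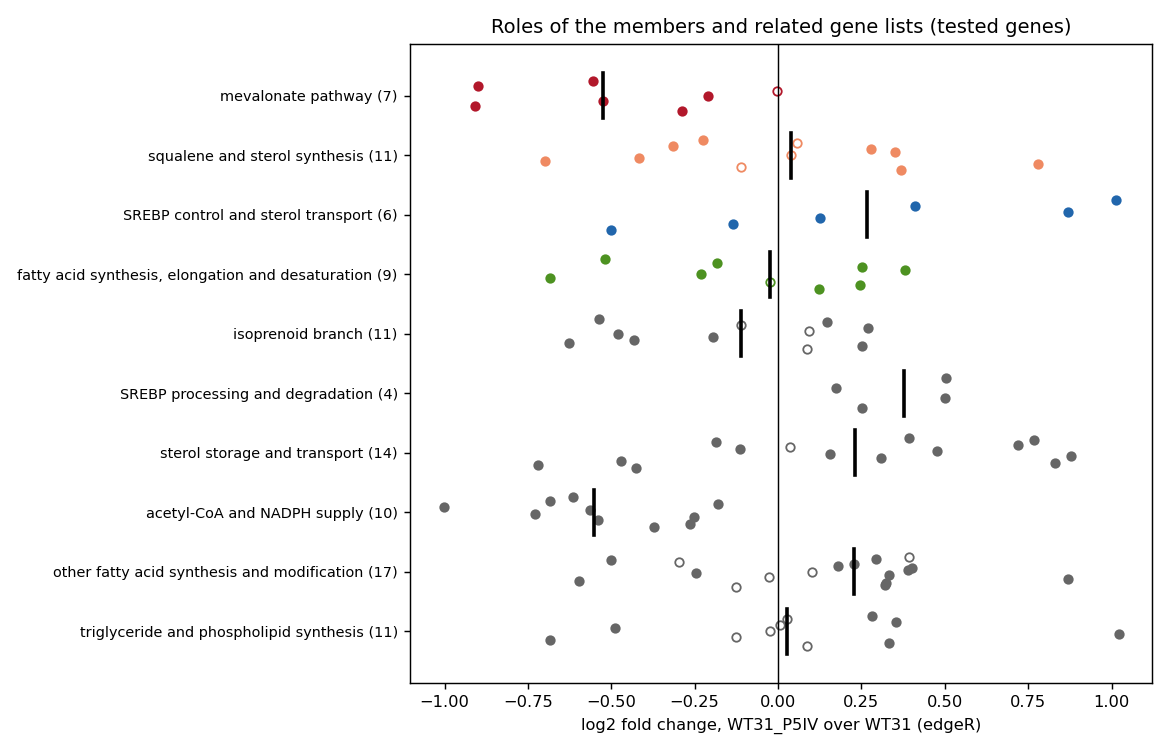
LogFC of each tested gene on the x axis, with 1 row for each role of the 33 genes (coloured) and each related list (grey), the number tested in brackets and a black bar at the median. Filled points passed an adjusted P of 0.05. The mevalonate and the acetyl-CoA and NADPH rows have their medians at -0.53 and -0.55, and the SREBP processing row at 0.38.

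The ratio of estimated count to TPM gives the effective length kallisto used, averaged over the transcripts of a gene. A shift can come from another mix of transcript lengths, but its cause was not tested. By limma 13 of the 33 genes changed in effective length, 10 longer and 3 shorter in WT31_P5IV, against 33.2% of all 12326 genes in that fit. Of the 4089 genes called in that fit 3446 were longer, so most called genes were longer there too. With the replicate number as a block 3 of the 33 genes were called. The shifts were small, with a median absolute log2 ratio of 0.02 for the 33 genes and 0.03 for all genes. The shorter genes were Insig2 (log2 ratio -0.18, adjusted P = 0.0179), Sc5d (log2 ratio -0.12, adjusted P = 0.0341) and Insig1 (log2 ratio -0.07, adjusted P = 0.00404), and only for Insig1 did the groups not overlap.

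The RNA of a whole culture was measured, so fewer cells with a transcript and less of it per cell cannot be told apart, and CPM gives an amount relative to the other mRNA of a library. At this depth 3 counts stood for 0.114 to 0.129 CPM, far below the lowest of the 33 genes, Pmvk, at 17.1 CPM.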

How the data were processed

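RNA-seq of cultured WT31 and WT31_P5IV cells was used, 5 libraries each. The 33 genes and the related lists were chosen with earlier results of these data known. At least 1 gene that would belong to a related list was left out and is not reported here. According to the submitters' processing notes reads were trimmed with Trim Galore 0.6.4 and pseudoaligned with kallisto to GRCm38.p6. The deposited values are kallisto's estimated counts per gene, not normalized, and TPM per gene, both made by the authors; the annotation release and strand setting are not given in the sources used here. Replicate numbers follow the sample titles; for WT31 the file labels number them otherwise. Symbols and positions came from GENCODE M21 by identifier without version (55144 of 55385 matched, 54487 with version).

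Estimated counts were rounded, filtered with filterByExpr, scaled by TMM and compared with edgeR 4.0.16 (glmQLFit, glmQLFTest; R 4.3.3), with Benjamini-Hochberg adjustment over 13620 genes. A call is an adjusted P below 0.05. LogFC is WT31_P5IV over WT31, its SE comes from the F statistic and its interval (95%) from the t distribution of the fit. CPM are per TMM-scaled library. limma 3.58.1 compared log2(estimated count/TPM), centred per library, for genes with at least 10 counts in every library. On simulated counts edgeR found 79.8% of genes changed by a log2 of 0.5 and 97.0% of those changed by 1, with 3 false calls among 13487 genes. Only 99 and 100 genes were changed there, up and down alike, with a fixed dispersion and no structure within groups. In the data 68.5% of genes were called, so these rates need not hold for them. No library pair agreed within sampling noise. Shared words are 31-base words of a gene's GENCODE transcripts found in another gene.

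Alternatives were DESeq2 1.42.0, limma voom with TMM or without scaling and filter, upper-quartile scaling, other count filters, a replicate block, an effective length offset, log2(TPM + 0.1) and log2(TPM + 1) with limma, and leaving out each library. Leaving out pairs of libraries was added after seeing the data. All 33 genes were named; of each related list the called genes with the largest rise and fall, other genes as stated. Promoters came from RefSeq (GRCm38.p6, 250 bases before the start; 26 of 33 matched by symbol); considered were, among these 26, the called gene without overlap with the largest LogFC of each role, pairs of a numbered family called in opposite directions without overlap (not Insig1 and Insig2, since Insig2 overlapped), and the gene with the sterol element, each up to the GENCODE gene; those of Idi1, Srebf1 and Acly, without TCACNCCAC or CCAAT there, were not printed, and Elovl6 was printed as one of its pair. Figures used matplotlib 3.10.9.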

Additional observations from a re-analysis of the deposited data

Results flagged for a closer look

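In 2 of 66 groups of 5 libraries 1 library stood apart from the rest by Dixon's criterion, which chance alone gives in about 1 of 20 groups. Tm7sf2 was at 86.8 CPM in WT31_P5IV 2 and at 71.8 to 74.6 CPM in the other WT31_P5IV libraries. Insig1 was at 117 CPM in WT31_P5IV 4 and at 126 to 130 CPM (129.6 at most) in the others. Without the library that stood apart Tm7sf2 had a LogFC of 0.29 (adjusted P = 3.08e-04, edgeR) and Insig1 a LogFC of 0.14 (adjusted P = 0.00111, edgeR), so both stayed higher in WT31_P5IV.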

How the results depend on the processing

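Each of the 33 LogFC was recomputed under 23 alternatives. Of these 759 values 694 had the same direction and side of the threshold, 33 lost the call, 14 gained one and 23 changed sign. Of the sign changes, at 6 genes, 3 also lost and 2 also gained a call. For 21 genes direction and side held throughout. Leaving out 1 library gave 26 to 29 called genes, 11 to 12 higher and 15 to 17 lower, 0 to 1 past 2-fold, and 1 to 2 lower genes of SREBP control; 9 to 11 genes were called for effective length. Genes past 2-fold were 0 with limma voom without scaling and filter, with every gene of at least 1 count kept, with the effective length offset and without WT31 2 and 3, and 2 (Hmgcs1 and Idi1) on TPM with either pseudocount. Lower genes of SREBP control were 1 with upper-quartile scaling, the effective length offset, TPM with either pseudocount, without WT31 2 and 3 and without WT31_P5IV 2 and 4. Higher fatty acid genes were 2 on TPM with either pseudocount. The cause was not tested.

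Sign changes at Mvk gave 0.00515 (limma voom with TMM), 0.0260 (upper quartile), 0.000832 (10 counts in every library), 0.00327 (replicate block), 0.0866 (without WT31 4 and 5) and 0.00645 (without WT31_P5IV 2 and 4), and leaving out 1 library gave -0.0555 to 0.0240. Sqle gave -0.0164 with limma voom without scaling and filter and -0.121 and -0.120 on TPM. Msmo1 gave -0.0296 with limma voom without scaling and filter, -0.0153 with at least 1 count, -0.132 and -0.131 on TPM and -0.0111 without WT31 2 and 3. Scd2 gave 0.00370 with the upper quartile and 0.00663 without WT31 2 and 3, Insig2 0.0345 with the offset and Fads2 -0.0640 and -0.0637 on TPM.

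Same-numbered libraries of both groups deviated together with correlations of -0.10 to 0.18, so the numbers do not pair them. With the replicate block 29 genes were called, 12 higher and 17 lower, and 3 changed in effective length.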
